A study of Mus musculus with 20 samples.

Results

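The 10 genes described here are members of the NF-kB system: the 5 subunits Nfkb1, Nfkb2, Rel, Rela and Relb, the feedback genes Nfkbia, Nfkbiz, Tnfaip3 and Bcl3, and the cytokine gene Tnf. They were taken as a named list, by matching Ensembl IDs of the deposited table to mouse symbols, and all 10 were found among its 46078 gene IDs. All 10 also passed the filter for testing, a mean of at least 1 TPM over the libraries, as did 14176 genes in all. TPM is a transcript level corrected for gene length and scaled to the same total, 1000000, in every library.

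The cells were LSK cells of mouse bone marrow, which lack lineage markers and carry cKit and Sca1, and among which the blood stem cells and early progenitors are found. In each of 5 groups 4 libraries of total RNA were made, each from 2 pooled C57Bl/6J mice aged 3 to 4 months. The WT group carried +/+;Vav-Cre. The Idh1R132H group carried Idh1LSL-R132H/+;Vav-Cre, the Idh2R140Q group Idh2LSL-R140Q/+;Vav-Cre and the Idh2R172K group Idh2LSL-R172K/+;Vav-Cre. The fifth group was Tet2-/-, called Tet2KO, and its label names no Cre, so the Vav-Cre transgene that the other groups share cannot be told apart from the Tet2 genotype in comparisons with it. Vav-Cre acts in blood cells in general and is not limited to LSK cells, and Tet2-/- is not limited to blood cells by its label. The table's columns for Idh2R140Q bear an Idh1 prefix beside the mutation 140Q and were assigned by the mutation.

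Tet2 stood at 11.2, 5.74, 12.2 and 10.6 TPM in the 4 libraries labelled Tet2KO and at 7.22, 6.67, 6.89 and 9.23 TPM in WT, so the knockout is not visible as a lower level of the whole gene. The labels do not say which exons were removed, and the Tet2KO groups below are named by label only. The LSK markers Kit and Ly6a were present in all 20 libraries. Kit lay between 334 and 636 TPM in 19 of them and at 97.9 TPM in Tet2KO library 2. That library also had the highest share of TPM on the ribosomal RNA gene Gm23935, 20.0%, against 7.55% as the lowest of the 20. Library 4 of WT and of the 3 Idh groups formed a second set apart, with a Gm23935 share of 7.55 to 8.13% where libraries 1 to 3 of these groups had 11.0 to 13.5%. These 4 libraries also had the highest immediate early scores of their groups, and their sex-linked RNA was male, as in library 2 of the same groups. Depth, recovered from the TPM, was 35.1 to 44.9 M assigned reads per library, M standing for 1000000.

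NF-kB proteins bind DNA as pairs of subunits. In resting cells the inhibitor made by Nfkbia holds them in the cytoplasm until the IKK kinase complex marks that inhibitor for destruction. The pairs then enter the nucleus and switch on target genes, among them Nfkbia and Tnfaip3, whose products end the signal. In blood stem and progenitor cells the system is known for its part in inflammation and in cell survival.

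RefSeq promoter windows on GRCm38.p6, from 250 bases before to 50 bases after an annotated start, were matched for 7 of the 10 genes, the others being Nfkb1, Relb and Nfkbiz. A match to the 10-base kappaB consensus on either strand was found for 5 of these 7 genes, Bcl3, Tnfaip3, Rel, Nfkbia and Nfkb2, and for neither Tnf nor Rela. By window it was 7 of 10, of which 3 belong to Nfkb2, and a pair of these overlap and hold the same site. Of all 32851 windows of this length 8.46% held a match. Matches in overlapping positions count separately. The 3 windows printed are those of Bcl3, Rela and Tnf, the genes called between Tet2KO and Idh2R172K below. Capitals mark the kappaB match, and each sequence reads 5′ to 3′ on the gene's own strand, which is the plus strand for Rela and the minus strand for Bcl3 and Tnf.

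Bcl3 (chr7:19822706-19823005): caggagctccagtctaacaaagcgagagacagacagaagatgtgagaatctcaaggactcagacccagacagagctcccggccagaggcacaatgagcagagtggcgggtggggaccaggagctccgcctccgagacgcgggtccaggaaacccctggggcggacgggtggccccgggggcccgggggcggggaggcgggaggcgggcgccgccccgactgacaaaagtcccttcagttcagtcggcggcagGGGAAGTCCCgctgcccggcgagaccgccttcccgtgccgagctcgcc

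Rela (chr19:5637291-5637590): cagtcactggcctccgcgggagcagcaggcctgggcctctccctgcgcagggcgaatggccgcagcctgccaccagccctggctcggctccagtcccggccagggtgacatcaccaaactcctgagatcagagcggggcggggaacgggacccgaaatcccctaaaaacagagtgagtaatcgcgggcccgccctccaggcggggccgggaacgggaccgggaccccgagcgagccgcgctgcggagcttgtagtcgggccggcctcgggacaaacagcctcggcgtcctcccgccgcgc

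Tnf (chr17:35201958-35202257): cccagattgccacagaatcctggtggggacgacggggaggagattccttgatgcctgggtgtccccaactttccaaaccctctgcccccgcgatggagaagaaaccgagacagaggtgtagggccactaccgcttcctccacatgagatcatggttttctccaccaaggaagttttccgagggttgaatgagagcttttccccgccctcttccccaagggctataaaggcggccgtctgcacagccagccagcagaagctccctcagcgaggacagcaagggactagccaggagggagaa

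The Bcl3 window held 1 match. The absence of a match in the Rela and Tnf windows says only that these letters are not in these stretches. A match is a feature of the sequence, and nothing in the RNA values shows whether a factor was bound there.

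The 10 genes spanned a wide range of levels. Nfkbia was the highest, with a median of 143 TPM over 20 libraries, then Rela with 124, Nfkb1 with 37.2, Nfkb2 with 21.5, Bcl3 with 17.6, Rel with 16.1, Nfkbiz with 7.57, Tnfaip3 with 6.78, Relb with 6.04 and Tnf with 2.32 TPM. Not all neighbours in this order were apart in every library. Nfkb1 lay below Rela and above Nfkb2 in 20 of 20 libraries, while Nfkbia lay above Rela in 14, Bcl3 above Rel in 12 and Nfkbiz above Tnfaip3 in 10. The spread between libraries was smallest for Nfkb1, whose highest value was 1.51 times its lowest, and widest for Tnf with 12.3 times, with Bcl3 at 5.83 times.

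**Figure D1:**
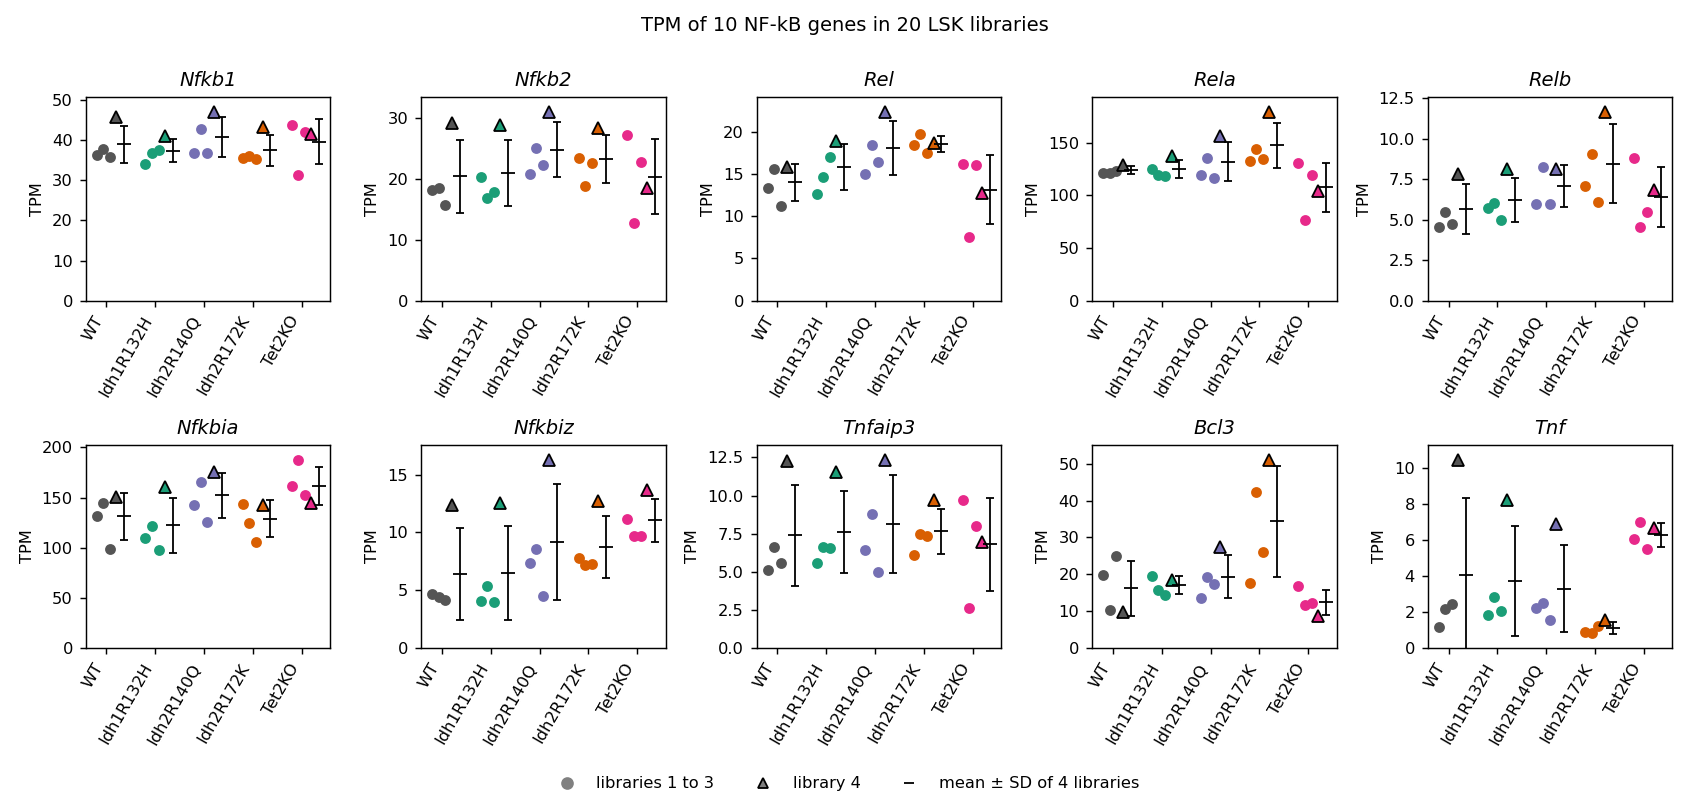
TPM of each of the 10 genes in 20 libraries, by group; each panel has its own axis from 0, circles are libraries 1 to 3, triangles library 4, and the bar is the mean ± SD of 4 libraries (the lower end of the Tnf bar in WT runs below 0 and is not shown). In WT and the Idh groups the triangle is the top point of most panels, and the 4 Idh2R172K points of Tnf all lie at or below 1.53 TPM.

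Nfkb1 encodes the p105 precursor of p50 and is on chromosome 3, from 135584655 to 135691547 in mm10. Its level was 36.3, 37.7, 35.9 and 45.8 TPM in WT, 35.5, 36.0, 35.2 and 43.3 TPM in Idh2R172K and 43.8, 31.2, 42.1 and 41.5 TPM in Tet2KO. Nfkb2, which encodes the p100 precursor of p52 (chromosome 19, 46304320 to 46312385), ranged from 12.8 to 30.9 TPM. Of its exon bases 531 and 299 overlap genes on the opposite strand, and as the strand setting is not given in the sources used here, its reads cannot be told apart from theirs. Rel, the c-Rel subunit (chromosome 11, 23736847 to 23770970), stood at 13.3, 15.6, 11.1 and 15.9 TPM in WT and at 18.4, 19.8, 17.4 and 18.7 TPM in Idh2R172K, so that all 4 Idh2R172K libraries lay above all 4 WT libraries. Rela, the p65 subunit (chromosome 19, 5637483 to 5648130), was between 122 and 129 TPM in WT and between 133 and 179 TPM in Idh2R172K, where again the groups did not overlap. In Tet2KO it stood at 131, 76.9, 120 and 104 TPM, with library 2 the lowest of all 20. Relb, the subunit of the non-canonical pathway (chromosome 7, 19606217 to 19629438), was 4.53 to 7.84 TPM in WT and 6.08 to 11.6 TPM in Idh2R172K.

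Of the subunits, Rel and Rela did not overlap between Idh2R172K and WT, beside 13% of all tested genes that were higher without overlap in this comparison. Neither was called: the log2 difference was 0.39 ± 0.19 (SE) for Rel with a limma adjusted p of 0.185, and 0.24 for Rela with an adjusted p of 0.269. Relb differed by 0.50 ± 0.21 with an adjusted p of 0.13. A log2 difference here is on the scale of log2(TPM + 1), which understates the change of genes with low levels.

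Nfkbia encodes IkB-alpha and lies on chromosome 12 from 55489410 to 55492647. It stood at 131, 144, 98.7 and 151 TPM in WT and at 161, 188, 153 and 145 TPM in the libraries labelled Tet2KO. It differed by 0.31 on the log2 scale between these groups, with an adjusted p of 0.226, and the groups overlapped. Nfkbiz (chromosome 16, 55811375 to 55838899) encodes IkB-zeta, a nuclear member of the inhibitor family that takes part in the induction of secondary response genes. Its level in WT was 4.69, 4.42, 4.19 and 12.3 TPM, in Idh1R132H 4.11, 5.38, 4.02 and 12.5 TPM, in Idh2R140Q 7.37, 8.53, 4.49 and 16.3 TPM, in Idh2R172K 7.77, 7.20, 7.24 and 12.8 TPM, and in Tet2KO 11.2, 9.66, 9.69 and 13.7 TPM. In each of the 5 groups library 4 was the highest, and in WT and Idh1R132H it was more than 2 times any of libraries 1 to 3. Tnfaip3 (chromosome 10, 19000910 to 19015657) encodes A20, a ubiquitin-editing enzyme that restrains the pathway. It was 5.15 to 6.63 TPM in WT libraries 1 to 3 and 12.3 TPM in library 4, and its lowest value, 2.60 TPM, was in Tet2KO library 2. Bcl3 (chromosome 7, 19808462 to 19822770) encodes a nuclear IkB-like protein that pairs with p50 and p52. It stood at 19.8, 10.2, 25.0 and 9.86 TPM in WT, at 17.8, 42.3, 26.2 and 51.1 TPM in Idh2R172K and at 16.8, 11.8, 12.3 and 8.75 TPM in Tet2KO. Its Idh2R172K values overlapped those of WT. In Bcl3 161 exon bases are shared with a gene on the opposite strand.

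Tnf, the inflammatory cytokine, lies on chromosome 17 from 35199381 to 35202007. It stood at 1.19, 2.17, 2.42 and 10.4 TPM in WT, at 1.82, 2.81, 2.04 and 8.22 TPM in Idh1R132H, at 2.22, 2.52, 1.56 and 6.87 TPM in Idh2R140Q, at 0.89, 0.85, 1.25 and 1.53 TPM in Idh2R172K and at 6.04, 6.99, 5.47 and 6.64 TPM in Tet2KO. The 4 Idh2R172K libraries were below the 4 of Idh2R140Q and the 4 of Tet2KO, and they overlapped WT. The level in Idh2R172K rests on about 17 to 30 recovered reads per library, against about 102 to 176 in Tet2KO. In bulk samples, fewer cells of a type that makes Tnf and less RNA per cell cannot be told apart. The summed TPM of 11 macrophage markers was 99.0 to 114 in Idh2R172K, 127 to 185 in WT and 185 to 193 in Tet2KO. That of 9 dendritic cell and MHC class II markers was 174 to 301, 384 to 824 and 693 to 1100 in the same order. In Idh1R132H these sums were 144 to 205 and 553 to 1180, and in Idh2R140Q 118 to 201 and 455 to 867. In Idh1R132H library 4, where Tnf was 8.22 TPM, the macrophage sum was 144, the lowest of its group. Of the 9 macrophage markers tested, 4 were higher and 0 lower in Tet2KO than in Idh2R172K, and of the 9 dendritic and MHC class II markers 5 were higher and 1 lower, beside 11.9% of all genes higher and 14.9% lower. The macrophage markers Marco and Vsig4 were each at 0 in 5 of the 20 libraries. Of 8 tested basophil, mast cell and eosinophil markers 5 were higher and 1 lower. The basophil protease Prss34 stood at 3.55 and the eosinophil granule gene Prg2 at 4.06 on the log2 scale. The lower one was Cpa3 at -1.45, with 102 TPM in Tet2KO and 281 TPM in Idh2R172K. These genes were named after their values were seen. Of 7 red cell markers 5 were higher, of 4 tested T and NK markers 3, and of 5 tested B lineage markers 1. Of 8 neutrophil markers 0 were called, and of 2 tested stromal and endothelial markers both were lower. The summed TPM of 10 T and NK markers was 14.6 to 21.4 in Idh2R172K, 41.1 to 67.1 in WT and 58.8 to 79.0 in Tet2KO. The largest part of it was Lck, with means of 9.37, 45.05 and 45.84 TPM in the same order. The T cell genes Cd3e, Cd3g, Cd3d and Trac had medians of only 0.193, 0.309, 0.372 and 0.555 TPM over the 20 libraries. The cells had been depleted of lineage-positive cells before sorting, a step meant to remove mature cells of such types. The part of all these cells in the Tnf values was not tested.

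Comparisons with WT gave few calls among the 10 genes. A call is an adjusted p under 0.05 in limma over all 14176 genes. In Idh1R132H against WT 0 of 10 were called, beside 0.00705% of all genes (229 genes had an unadjusted p under 0.05), and limma-voom on recovered reads also called 0. The median log2 difference was 0.04 for the 10 genes and 0.037 for all genes. In Idh2R140Q against WT 0 of 10 were called, beside 0% of all genes (407 with an unadjusted p under 0.05), and voom called 0. The members' median was 0.25 against 0.079 for all genes, and 9 of the 10 differences were above 0. So were 29 of 37 tested receptors and adaptors upstream of IKK and 17 of 18 genes of the IKK complex and its kinases and ligases. The share of all genes above 0 was not computed. In Idh2R172K against WT 1 of 10 was called, higher, beside 15.4% of all genes called in either direction. This was Bcl3, by 1.03 ± 0.32 on the log2 scale with an adjusted p of 0.0350. The median difference was 0.22 for the 10 genes and 0.107 for all genes. In Tet2KO against WT 0 of 10 were called, beside 7.05% of all genes. Of the genes called, 71.3% were higher, and this share was 35.5% with median-of-ratios scaling and 42.2% with quantile normalization. Here 3765 genes had an unadjusted p under 0.05. Nfkbiz differed by 0.81 ± 0.36 with an adjusted p of 0.164 and Tnf by 0.84 ± 0.44 with an adjusted p of 0.231. Voom on recovered reads called 1, Nfkbiz, at 1.04 with an adjusted p of 0.0479.

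The call of Bcl3 against WT did not hold in 9 of 23 alternatives. It was lost without WT library 2, WT library 4, Idh2R172K library 2 and Idh2R172K library 4, each left out alone, with adjusted p between 0.0997 and 0.13. Without all libraries numbered 4 the difference was 0.62 with an adjusted p of 0.24.

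Of the 6 comparisons, Tet2KO against Idh2R172K had the most calls. In this comparison 3 of 10 genes were called, beside 26.8% of all genes, and the median difference was -0.23 for the 10 genes and -0.062 for all. Tnf was higher in the libraries labelled Tet2KO, 6.29 ± 0.668 TPM (SD, n = 4) against 1.13 ± 0.323 TPM, a log2 difference of 1.78 ± 0.44 (SE) with an adjusted p of 0.00768. All 4 Tet2KO libraries lay above all 4 of Idh2R172K, as did 11.7% of all genes. Tnf was called in each of its 22 alternatives, with differences of 1.53 to 2.63 and adjusted p of 4.057e-05 to 0.024. Bcl3 was lower in Tet2KO, 12.4 ± 3.33 against 34.3 ± 15.1 TPM, which is -1.32 on the log2 scale (adjusted p 0.00659). Rela was lower, with a log2 difference of -0.46 and an adjusted p of 0.0201. Rel, with groups that did not overlap, missed the threshold at -0.52 and an adjusted p of 0.0526, and 13.8% of all genes were lower without overlap. The groups of Nfkbia did not overlap either, with 145 to 188 TPM in Tet2KO and 105 to 144 TPM in Idh2R172K, at a difference of 0.33 and an adjusted p of 0.138. Rela lost its call without Idh2R172K library 4 (adjusted p 0.0726) and without Tet2KO library 2 (0.0533). In Idh2R172K against Idh2R140Q 0 of 10 were called, beside 10.5% of all genes (2976 with an unadjusted p under 0.05), and voom called 0. Tnf lay below without overlap, as did 9.69% of all genes, at -0.88 with an adjusted p of 0.272.

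**Figure D2:**
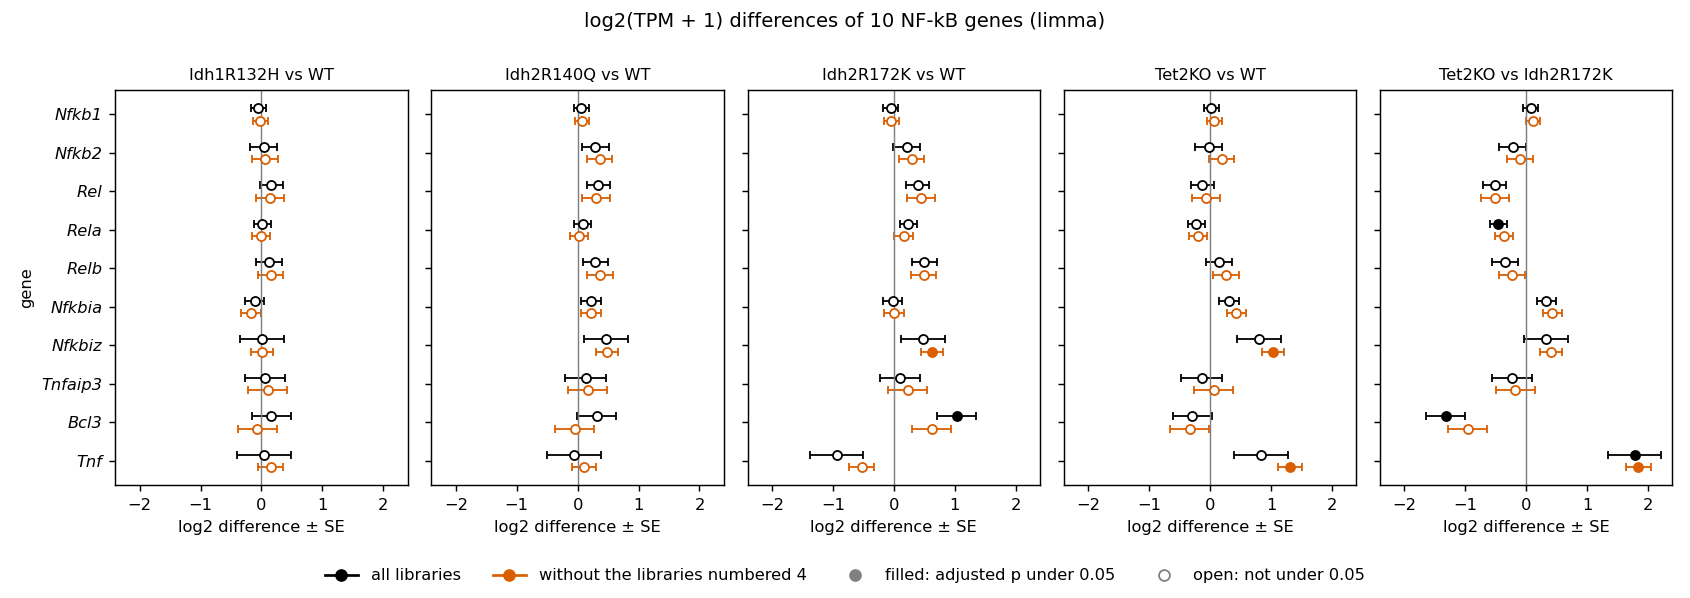
Log2 difference ± SE of each gene in 5 comparisons, with all libraries (black) and without the libraries numbered 4 (orange); filled points have a limma adjusted p under 0.05 over 14176 genes. Tnf is filled in both colours in Tet2KO against Idh2R172K, and Nfkbiz and Tnf against WT are filled in orange and open in black in Tet2KO.

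The libraries numbered 4 are described apart, without a test. In WT 9 of the 10 genes were above libraries 1 to 3 of the same group, in Idh1R132H 9, in Idh2R140Q 9, in Idh2R172K 8 and in Tet2KO 1. In WT and the Idh groups most genes did the same in TPM: 56.9, 63.5, 61, 53.8 and 16.4% of all tested genes lay above libraries 1 to 3 in the 5 groups, in the same order. The members are therefore read after median-of-ratios scaling, which brings the median ratio of all genes to 0.986 in WT. On that scale Tnf in library 4 was 4.6 times the mean of libraries 1 to 3 in WT, 3.10 times in Idh1R132H, 2.67 times in Idh2R140Q, 1.33 times in Idh2R172K and 0.981 times in Tet2KO. Nfkbiz was 2.36, 2.33, 1.96, 1.5 and 1.25 times the mean in the same order, and Tnfaip3 was 1.8, 1.55, 1.5, 1.21 and 1.01 times. Bcl3 followed no such order, with 0.459 times in WT and 1.55 times in Idh2R172K. After this scaling 6, 6, 6, 8 and 1 of the 10 genes lay above libraries 1 to 3 in the 5 groups, beside 33.4, 35.1, 32.7, 32.8 and 12.6% of all tested genes. After quantile normalization the counts were 5, 6, 5, 4 and 1, beside 31.7, 33.3, 31.9, 28.3 and 15.6% of all genes.

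**Figure D3:**
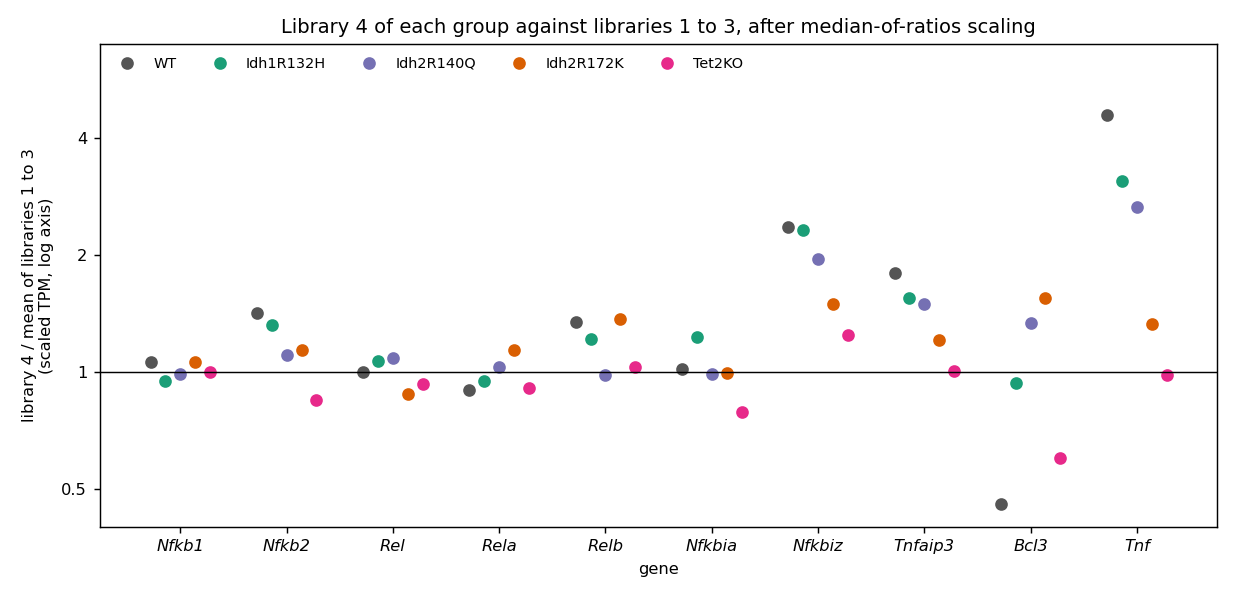
Level in library 4 divided by the mean of libraries 1 to 3 for each gene and group, after median-of-ratios scaling, on a log axis with a line at 1. Tnf, Nfkbiz and Tnfaip3 have their highest points in WT and their lowest in Tet2KO, and Bcl3 is below 1 in WT, Idh1R132H and Tet2KO.

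Without the libraries numbered 4, with 3 libraries a group, the SD of Nfkbiz was smaller in all 5 groups. That of Tnf was smaller in WT and the Idh groups, but not in Tet2KO, where it was 0.767 TPM against 0.668 TPM with all 4 libraries. Nfkbiz was 4.43 ± 0.252 TPM in WT (SD, n = 3), 7.40 ± 0.319 in Idh2R172K and 10.2 ± 0.856 in Tet2KO. In Tet2KO against WT 2 of 10 genes were then called, beside 10.2% of all genes: Nfkbiz by 1.04 ± 0.18 with a limma adjusted p of 0.00434, and Tnf by 1.31 ± 0.20 with an adjusted p of 0.00238. Over all alternatives the adjusted p of this comparison ran from 0.00223 to 0.343 for Nfkbiz and from 0.00189 to 0.493 for Tnf. In Idh2R172K against WT Nfkbiz was called by 0.63 ± 0.18 with an adjusted p of 0.0369, beside 11.7% of all genes. Tnf there was -0.53 with an adjusted p of 0.103. In Tet2KO against Idh2R172K Bcl3 was no longer called (-0.96, adjusted p 0.0572), nor was Rela (-0.36, adjusted p 0.108). Tnf was called, by 1.84 ± 0.20 with an adjusted p of 4.057e-05, beside 16.9% of all genes. Without Tet2KO library 2 as well, Tet2KO against WT had 5 of 10 called, beside 28.1% of all genes: Nfkb1 (0.22), Nfkb2 (0.49), Nfkbiz (1.07), Tnfaip3 (0.54) and Tnf (1.23). That fit has 2 Tet2KO libraries, and in it 26.4% of all genes were called higher and 1.76% lower. It was made on TPM with no further scaling. The median-of-ratios factors were 1.07 and 1.09 in the 2 Tet2KO libraries and 0.903 to 0.944 in WT libraries 1 to 3.

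Immediate early genes are switched on within minutes of a stimulus. The immediate early score is a mean z over 22 genes of a list that also holds heat shock genes, among them Hspa8 and Dnajb1. It was between -1.06 and -0.03 in libraries 1 to 3 of WT and the Idh groups. In library 4 of these groups it was 0.75 to 1.45, and in Tet2KO -0.02 to 0.84. Over the 20 libraries, with each group centred on its mean, the correlation with this score was 0.95 for Nfkbiz, 0.89 for Tnf, 0.63 for Nfkbia and 0.15 for Bcl3. These 20 points share the shift of library 4, so the correlations are a description. Of these 22 immediate early and heat shock genes 2 were called higher in Tet2KO than in WT, beside 5.02% of all genes. Without the libraries numbered 4 it was 12, beside 9.23%. In libraries 1 to 3 the score was -1.06 to -0.52 in WT and -0.02 to 0.32 in Tet2KO. There the score and the Tet2 genotype cannot be told apart. With the score as a covariate, the Tet2KO difference from WT was 0.32 for Nfkbiz with a limma adjusted p of 0.111. For Tnf it was 0.28 with an adjusted p of 0.4. Nfkbiz in Idh2R172K then differed from WT by 0.21 with an adjusted p of 0.304. The difference of Tnf between Tet2KO and Idh2R172K was 1.53 in that fit with an adjusted p of 9.387e-05. Between Idh2R172K and WT the difference of Tnf was -1.25 with an adjusted p of 0.000652. With a term for library 4 instead it was -0.94 with an adjusted p of 0.0237. In the fit with no added term it was -0.94 with a limma adjusted p of 0.166. The score and the library 4 term each take 1 effect for all groups. After median-of-ratios scaling, Tnf in library 4 was 4.6 times the mean of libraries 1 to 3 in WT and 1.33 times in Idh2R172K.

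**Figure D4:**
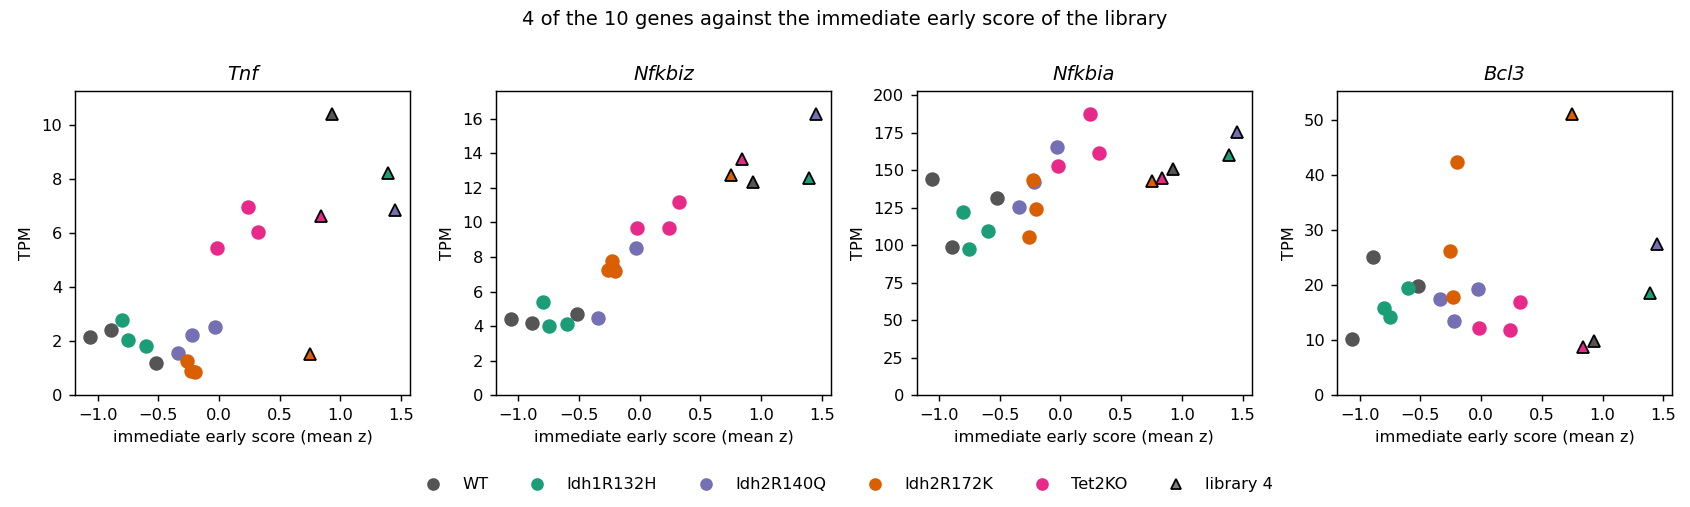
TPM of Tnf, Nfkbiz, Nfkbia and Bcl3 against the immediate early score of each library, by group, with triangles for library 4. Nfkbiz rises along the score, and the 4 Idh2R172K points of Tnf stay at 0.85 to 1.53 TPM up to a score of 0.75.

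The genes whose pattern over libraries was most like each member, by Pearson r of group-centred log2(TPM + 1) over 20 libraries, were read as a description. For Nfkbiz they were Zfp36 (0.97), Ier2 (0.97) and Dusp1 (0.96), and for Tnf they were Ier3 (0.95), Ccl3 (0.94) and Pstpip1 (0.93). Over the 14 libraries without those numbered 4 and Tet2KO library 2, Zfp36 stood at 0.82 and Ccl3 at 0.80, while Dusp1 stood at 0.54 and Pstpip1 at 0.50. For Bcl3 they were Crtap, Socs1 and Riox1, at 0.96, 0.96 and 0.95 over 20 libraries and at 0.94, 0.96 and 0.98 over 14. Among the members themselves Nfkb1 and Tnfaip3 had an r of 0.96 and Tnf and Nfkbiz 0.92, and Bcl3 had -0.06 with Nfkbia and 0.49 with Rela. These pairs were read over the 20 libraries only. Nfkb1 had an r of 0.97 with Tbc1d17 and Tnfaip3 one of 0.98 with Zfp608, and over 14 libraries these stood at 0.77 and 0.93.

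Other genes of the pathway were counted by role, beside 8.03% of all genes called higher and 7.33% called lower in Idh2R172K than in WT. Of 17 other inhibitors and feedback genes, 1 was higher and 1 lower in Idh2R172K than in WT, Rnf11 at 0.99 and Tnip3 at -1.62, the latter an A20-binding protein with 12.9 TPM in WT and 3.59 in Idh2R172K. Of 37 tested receptors and adaptors upstream of IKK, 1 was higher and 4 were lower, among them Il18r1, a receptor chain for interleukin 18, at -1.82, the adaptor Card9 at -1.84 and Tlr6 at -0.90. None of 18 genes of the IKK complex and its kinases and ligases was called. Of 21 tested target genes 5 were higher and 2 lower, among them the survival gene Bcl2l1 at 1.15, the growth factor Csf1 at 0.99 and Tnfsf9 at 0.56, and the chemokine Ccl3 at -3.94. Ccl3 stood at 1.52, 0.86, 2.03 and 4.49 TPM in Idh2R172K and at 21.7, 37.5, 33.9 and 142 TPM in WT, so its groups did not overlap.

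In Tet2KO against WT, where 5.02% of all genes were called higher and 2.02% lower, Ly96 was higher at 0.68 and Tlr6 lower at -1.05 among the receptors and adaptors, and none of the 17 inhibitors or the 18 IKK genes was called. Among the 21 targets 3 were higher and 0 lower: Ltb, which encodes lymphotoxin beta, at 0.99, the chemokine Ccl4 at 2.06 and Ier3 at 1.31. Without the libraries numbered 4 these counts became 6 of 21 targets, 4 of 17 inhibitors and 4 of 18 IKK genes higher, beside 9.23% of all genes. That fit was made on TPM with no further scaling, and 90.3% of all genes it called were higher. In Idh1R132H and in Idh2R140Q against WT none of these lists had a called gene.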

How the data were processed

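Total RNA of 20 LSK libraries, 5 groups of 4 pools of 2 mice, was analysed from 1 deposited table. Per the submitters' processing notes, the tools used by the authors were Trim Galore, STAR and featureCounts, on the build mm10; versions, annotation and strand setting are not given in the sources used here. The deposited values are TPM, each library summing to 1000000. Of 46078 gene IDs, 45229 were named with GENCODE M21. Values were compared on the scale log2(TPM + 1) with limma 3.58.1 (R 4.3.3), all 5 groups in 1 model with an intensity trend. P-values are 2-sided and were adjusted by Benjamini-Hochberg over 14176 genes averaging 1 TPM or more, with a threshold of 0.05. Python 3.11.15, pandas 2.3.3, numpy 2.4.6, scipy 1.17.1 and matplotlib 3.10.9 were used for tables and plots. The test was tried on simulated data, in which each gene and library was drawn independently and library 4 had no shift. That trial cannot show how the calls bear such a shift. Reads were recovered from TPM and exon length, with 90.11 to 91.17% of values up to 30 reads whole within 0.1 reads, and served depth and limma-voom.

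The members and gene lists were chosen with earlier results of these data known, and other genes were named by a fixed rule of up to 4 called genes per list and comparison with WT. Same-numbered libraries of Idh1R132H and WT deviated together (correlations 0.237, 0.217, 0.176 and 0.489), as did those of Idh2R172K and Idh2R140Q (0.253, 0.213, 0.253 and 0.534). By this check of the data the numbers were read as pairs in these comparisons, but the main fit held no term for them. A replicate block was fitted only as an alternative. The labels do not say that a number marks a batch. In WT and the Idh groups the sex-linked RNA also went by number, female in 1 and 3 and male in 2 and 4. Centring on a group mean also lets the shift of library 4 move libraries 1 to 3 together. Why same-numbered libraries deviated together was not tested. Alternatives were other pseudocounts, filters, scalings, weights, terms for library 4, sex-linked RNA or the immediate early score, a replicate block, and leaving out libraries; voom and leaving out Tet2KO library 2 with the libraries numbered 4 were chosen after seeing the data.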

Additional observations from a re-analysis of the deposited data

Results flagged for a closer look

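Of 50 groups of 4 libraries (10 genes in 5 groups), 6 had a library whose gap to its neighbour, as a share of the group's range, was above Dixon's critical value, which chance passes in about 1 group in 20. All 6 were the highest value, and all were library 4. Nfkbiz was set apart in WT (12.3 TPM), in Idh1R132H (12.5 TPM) and in Idh2R172K (12.8 TPM). Tnf was set apart in WT (10.4 TPM) and in Idh1R132H (8.22 TPM). Nfkb1 was set apart in Idh2R172K (43.3 TPM). These are TPM without further scaling, in which 53.8% of all tested genes in Idh2R172K lay above libraries 1 to 3 in library 4. After median-of-ratios scaling Nfkb1 there was 1.06 times the mean of libraries 1 to 3, a higher ratio than 61.6% of genes had. The share of all genes passing Dixon's value was not computed.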

How the results depend on the processing

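Of 1374 values of members under an alternative, 1313 kept their side of the threshold, 16 lost a call, 43 gained one in the same direction and 2 gained one in the opposite direction. The 2 were Nfkb2 (0.49) and Tnfaip3 (0.54) in Tet2KO against WT, without the libraries numbered 4 and Tet2KO library 2; leaving out single replicates gave -0.17 to 0.18 and -0.33 to 0.19. No alternative called a member in Idh1R132H or Idh2R140Q against WT. Tnf has no value at a mean of at least 5 TPM.

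Members called in Idh2R172K against WT (1) became 0 with no filter and in a fit of only the 2 groups, 2 with library weights, 3 with a term for library 4, 2 with the immediate early score and 2 without the libraries numbered 4 and Tet2KO library 2. In Tet2KO against WT (0) they became 1 with median-of-ratios scaling (Rela, -0.27, adjusted p 0.0214), 4 with library weights, 2 without the libraries numbered 4, 1 with a term for library 4, 1 with voom and 5 without those libraries and Tet2KO library 2. In Tet2KO against Idh2R172K (3) they became 5 with quantile normalization, 1 without the libraries numbered 4, 5 with the score and 6 with voom. In Idh2R172K against Idh2R140Q (0) they became 1 with a term for library 4, 1 with the score and 1 without those libraries and Tet2KO library 2. Leaving out each replicate gave 0 to 1 members in Idh2R172K against WT and 0 to 1 in Tet2KO against WT.

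Genes called over the whole table moved as follows. In Idh1R132H against WT (1) there were 2 with no filter, 0 at a mean of at least 5 TPM and 0 in a fit of only the 2 groups; in Idh2R140Q (0) there were 2 with no filter. In Idh2R172K (2177) there were 1371 at a mean of at least 5 TPM, 4586 with weights and 4742 without the libraries numbered 4 and Tet2KO library 2, and 1618 to 2154 with each replicate left out. In Tet2KO against WT (999) there were 517 at a mean of at least 5 TPM, 2780 with median-of-ratios scaling, 2492 with quantile normalization, 45 in a fit of only the 2 groups, 5231 with weights, 2210 with a term for library 4, 1847 with the score, 2569 with voom, 3988 without those libraries and Tet2KO library 2, and 266 to 1391 with each replicate left out. The share of higher genes there was 71.3% in TPM, 35.5% with median-of-ratios scaling and 42.2% with quantile normalization. In Tet2KO against Idh2R172K (3803) there were 1190 in a fit of only the 2 groups and 2399 without the libraries numbered 4. In Idh2R172K against Idh2R140Q (1489) there were 894 at a mean of at least 5 TPM, 2734 with weights and 3013 without those libraries and Tet2KO library 2, and 1168 to 1383 with each replicate left out.

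With the replicate block, the paired comparisons of Idh1R132H with WT and of Idh2R172K with Idh2R140Q kept 0 members called, and genes called in the former rose from 1 to 2. In the other comparisons not every pair's correlation passed 0.1: it was 0.097 to 0.451 in Idh2R140Q against WT, -0.023 to 0.404 in Idh2R172K against WT, -0.081 to 0.079 in Tet2KO against WT and -0.177 to 0.057 in Tet2KO against Idh2R172K. There the block called 3 members in Idh2R172K against WT, 1 in Tet2KO against WT (2485 genes) and 5 in Tet2KO against Idh2R172K. Every library correlated best with its own number only in the paired comparisons.

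Members above libraries 1 to 3 in library 4 numbered 5 in WT, 6 in Idh1R132H, 5 in Idh2R140Q, 4 in Idh2R172K and 1 in Tet2KO after quantile normalization, and 6, 6, 6, 8 and 1 with median-of-ratios scaling. The cause of these changes was not tested. At this depth Tnf in Idh2R172K rests on about 17 to 30 recovered reads per library.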
